A study of Mus musculus with 96 samples.

Results

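The 10 genes described here encode secreted signals that muscle cells can make: the chemokines Ccl2, Ccl7, Cxcl1, Cxcl5, Cxcl12 and Cx3cl1, and the cytokines Il6, Lif, Il11 and Csf1. They were chosen by gene name from a table of 54150 rows and followed through every cell state and treatment of a study of mitochondrial inhibition in C2C12, a mouse myoblast line that fuses into myotubes in low serum. RNA-seq was available for 96 samples in 35 conditions of 2 or 3 replicates each. Proliferating myoblasts grew in 10% dialyzed fetal bovine serum and carried a stably integrated, doxycycline-inducible transgene, which was switched on with 300 ng/ml doxycycline 24 h before treatment. The transgene was luciferase in the control myoblasts, LbNOX (a bacterial enzyme that oxidizes NADH to NAD+ with oxygen), mitoLbNOX (the same enzyme sent to mitochondria) or NDI1 (a yeast NADH dehydrogenase that bypasses complex I). These cells received DMSO, 0.5 µM piericidin (a complex I inhibitor), 0.5 µM antimycin (complex III) or 1 µM oligomycin (ATP synthase) for 10 h. Antimycin was not paired with NDI1, and oligomycin was paired only with control and LbNOX myoblasts. Control and LbNOX myoblasts were also kept for 48 h in 20 µg/ml chloramphenicol, which blocks mitochondrial translation, or in DMSO. Per the study, uridine was present in the chloramphenicol treatment, whereas the medium of the inhibitor treatments lacked it. Day 1 cells were C2C12 cells without a transgene, grown to confluence in 20% serum and then held for 24 h in 2% horse serum, and they received DMSO, piericidin or oligomycin. Myotubes had spent 4 days in 2% horse serum. Myotubes without a transgene received the 3 inhibitors, 0.5 µM of the uncoupler BAM15, 5% oxygen, or oligomycin together with piericidin, BAM15 or 5% oxygen, and myotubes transduced with a GFP or LbNOX adenovirus received piericidin or oligomycin. All samples came from 1 cell line, and the labels do not say that replicates were separate cultures, so p-values measure the spread between these samples, which may be technical. Control myoblasts differed from day 1 cells and myotubes in transgene, doxycycline and serum as well as in state, and these cannot be told apart.

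Chemokines are small proteins that guide leukocytes along a gradient, and they are grouped by the spacing of their conserved cysteines. CCL2 and CCL7 are CC chemokines that draw in monocytes, largely through the receptor CCR2. CXCL1 and CXCL5 are CXC chemokines that recruit neutrophils through CXCR2, whereas CXCL12 acts through CXCR4 and ACKR3 on progenitor cells. CX3CL1, or fractalkine, is made as a membrane protein and shed. IL-6, LIF and IL-11 signal through receptors that share the subunit gp130, encoded by Il6st, and activate JAK-STAT signalling, and CSF1 maintains macrophages. In muscle, several of these signals are known from repair after injury, when monocytes and macrophages enter the tissue, and IL-6 and LIF are known as myokines of contracting fibres.

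Depth was 6458295 to 15366745 counts per sample, with a median of 10336588.5. Markers followed the labelled states: the summed level of 9 genes of differentiated muscle was 11.2 to 93 CPM (counts scaled to a common library size) in myoblasts, 11300 to 12100 in day 1 cells and 12200 to 16400 in myotubes, and the summed level of 4 proliferation genes ran the other way, at 561 to 1130, 147 to 200 and 21 to 125 CPM. Markers of leukocytes, a common source of these signals in tissue, summed over 8 genes to 7.7 to 19.4 CPM in myoblasts, 6.23 to 9.13 in day 1 cells and 6.31 to 11.7 in myotubes. Cd14 had the most counts of these, 60 to 186 per library in myoblasts, 49 to 63 on day 1 and 27 to 81 in myotubes, and Cd68 had 2 to 75, 2 to 14 and 7 to 60. The pan-leukocyte gene Ptprc had at most 4, 6 and 10 counts, and the macrophage gene C1qa at most 3 in myoblasts and 0 on day 1 and in myotubes. Their part in the results was not tested. Each of the 60 transduced samples had at least 372 counts on its own transgene, and 0 samples had a count on a transgene that their label does not name.

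In the GRCm38 annotation, Ccl2 (chr11:82035571-82037453, + strand) and Ccl7 (chr11:82045712-82047525, + strand) lie 8258 bases apart with 0 protein-coding genes between them. Cxcl5 (chr5:90759360-90761624, + strand) and Cxcl1 (chr5:90891241-90893115, + strand) share a second cluster, 129616 bases apart with 4 protein-coding genes between them. The other members stand alone: Il6 (chr5:30013114-30019981, + strand), Cxcl12 (chr6:117168535-117181367, + strand), Cx3cl1 (chr8:94772009-94782427, + strand), Lif (chr11:4257557-4272514, + strand), Csf1 (chr3:107741048-107760469, − strand) and Il11 (chr7:4772373-4782859, − strand). Ccl2 overlaps Gm17268 on the opposite strand, which had 0 counts in all 96 samples. Counts were summed over the exons of all transcripts of a gene.

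RefSeq promoter sequences (GRCm38.p6) were at hand for 7 of the 10 members. Shown here are the 250 bases before the start site of members whose levels fell with piericidin in control myoblasts (Cxcl1, Cxcl12, Cx3cl1) and of members that were higher with antimycin (Il6, Lif), each written 5′ to 3′ on the gene's strand, with matches to the searched letters in capitals.
Cxcl1 chr5:90890995-90891244 (+ strand): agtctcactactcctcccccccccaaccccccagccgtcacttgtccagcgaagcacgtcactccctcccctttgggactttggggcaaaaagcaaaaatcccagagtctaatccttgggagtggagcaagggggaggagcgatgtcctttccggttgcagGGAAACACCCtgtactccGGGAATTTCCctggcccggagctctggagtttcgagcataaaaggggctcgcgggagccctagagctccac
Cxcl12 chr6:117168285-117168534 (+ strand): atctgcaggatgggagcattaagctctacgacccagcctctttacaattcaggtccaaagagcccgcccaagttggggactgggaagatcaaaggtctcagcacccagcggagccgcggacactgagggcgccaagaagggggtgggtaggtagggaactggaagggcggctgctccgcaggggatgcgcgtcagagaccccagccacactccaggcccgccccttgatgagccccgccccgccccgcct
Cx3cl1 chr8:94771930-94772179 (+ strand): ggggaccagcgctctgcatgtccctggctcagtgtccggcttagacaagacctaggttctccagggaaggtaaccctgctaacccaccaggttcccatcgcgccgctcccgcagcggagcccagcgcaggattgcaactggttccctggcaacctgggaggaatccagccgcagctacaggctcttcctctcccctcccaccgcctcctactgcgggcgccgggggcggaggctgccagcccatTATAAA
Il6 chr5:30012864-30013113 (+ strand): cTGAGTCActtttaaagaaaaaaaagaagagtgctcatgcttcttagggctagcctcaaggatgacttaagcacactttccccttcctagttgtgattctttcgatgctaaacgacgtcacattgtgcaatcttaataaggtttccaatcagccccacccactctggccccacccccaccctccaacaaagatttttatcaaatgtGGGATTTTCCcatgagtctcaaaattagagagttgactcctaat
Lif chr11:4257318-4257567 (+ strand): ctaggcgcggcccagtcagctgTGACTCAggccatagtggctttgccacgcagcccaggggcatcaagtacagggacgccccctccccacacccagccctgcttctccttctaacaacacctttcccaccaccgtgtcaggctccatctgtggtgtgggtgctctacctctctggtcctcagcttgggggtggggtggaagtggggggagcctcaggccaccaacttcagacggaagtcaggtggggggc
The letters searched on both strands were GGGNN followed by TTTCC for a kappaB site, bound by NF-kB, TGANTCA for AP-1, TGACGTCA for a CRE, TGATGNAA for the CARE element, bound by ATF4, and TATAAA for a TATA box. The kappaB letters occurred in 1.41% of 32851 promoter windows of this length, AP-1 in 6.75%, the CRE in 1.55%, CARE in 3.45% and TATAAA in 12.4%. Cxcl1 held a pair of kappaB matches, starting 89 and 71 bases before its start site. Il6 held a kappaB match at 44 bases and an AP-1 match at 249 bases, and Lif held an AP-1 match at 228 bases. Of the members not printed, Csf1 held a kappaB match at 154 bases and the second of 2 listed starts of Il11 an AP-1 match at 98 bases. The Cxcl12 window held no match to any of these letters, Cx3cl1 held TATAAA alone, and no member's window held the CRE or CARE letters. A match is a description of the letters and not evidence of binding.

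Without inhibitor, the mix of signals differed between cell states, with lower Csf1, Ccl2 and Ccl7 and higher Cxcl12 and Lif in myotubes than in control myoblasts. Per kilobase of exon, control myoblasts had most Csf1 (35.1 CPM per kb), followed by Cx3cl1 (12.3), Ccl2, Ccl7 (8.8), Cxcl12 (6.6), Cxcl5 (2.52), Cxcl1 (1.08), Il11 (0.324) and Lif (0.248), and Il6 had no count in any of the 3 libraries. In untransduced myotubes Cxcl12 led at 16.9 CPM per kb, ahead of Csf1 (10.8) and Cx3cl1 (7.39), while Lif (1.86) stood above Ccl7 (1.6), Cxcl5 (1.24), Cxcl1 (0.935), Il11 (0.856), Ccl2 (0.625) and Il6 (0.292). Of the 9 members tested, 3 were higher and 5 lower in myotubes than in control myoblasts, or 8 of 9 against a background of 69.4% of all genes tested in that comparison. The DMSO libraries of control myoblasts and day 1 cells all sat in outer wells, as read from the position code in the labels. Those of untransduced myotubes all sat in inner wells. With plate position in the fit, the calls over the 3 state comparisons went from 23 to 19.

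**Figure D1:**
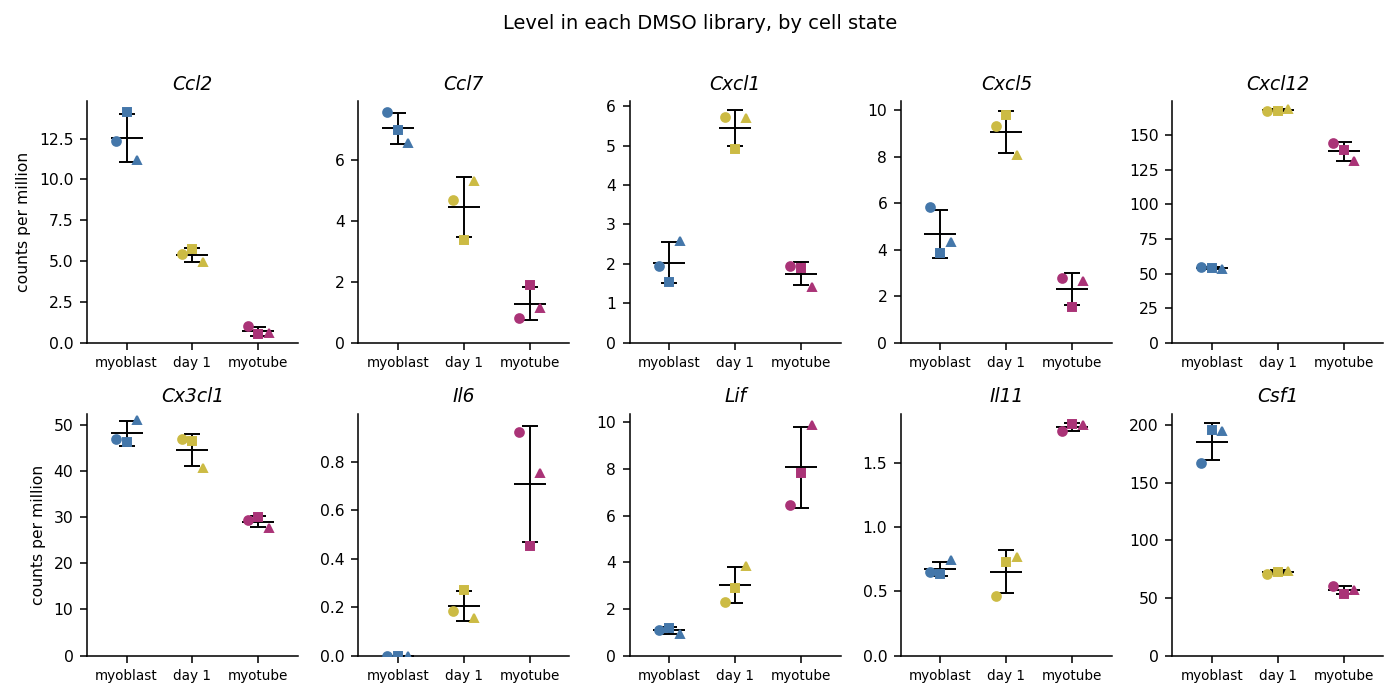
CPM of the 10 genes in each DMSO library of control myoblasts, day 1 cells and untransduced myotubes (marker shape gives the replicate number, bars the mean ± SD, n = 3). Ccl2 falls from 12.5 through 5.37 to 0.711 CPM, Cxcl1 and Cxcl5 are highest on day 1, and Lif is highest in myotubes.

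Ccl2 was at 12.3, 14.1 and 11.2 CPM in the 3 DMSO libraries of control myoblasts, at 5.45, 5.73 and 4.92 on day 1 and at 1.03, 0.541 and 0.566 in myotubes. The 3 states did not overlap. Its log2 fold change was −1.22 ± 0.26 (SE, n = 3 against 3) from myoblasts to day 1 (edgeR quasi-likelihood test, adjusted p = 0.000191) and −2.87 ± 0.34 from day 1 to myotubes (edgeR adjusted p = 7.15e-08). In bulk samples, fewer expressing cells and less RNA per cell cannot be told apart. Ccl7 followed with 7.05 ± 0.515, 4.46 ± 0.994 and 1.28 ± 0.552 CPM (SD, n = 3 each). Its first step was not called (−0.65, edgeR adjusted p = 0.123), except with only the conditions compared in the fit (edgeR adjusted p = 0.0234). The second step was called, at −1.74 ± 0.43 (edgeR adjusted p = 0.00188). Without the replicates numbered 3 that step missed the threshold, at −1.55 (edgeR adjusted p = 0.0546).

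The neutrophil chemokines peaked on day 1. Cxcl5 was at 5.84, 3.88 and 4.35 CPM in myoblasts, 9.32, 9.82 and 8.07 on day 1 and 2.77, 1.53 and 2.64 in myotubes. All day 1 libraries lay above all others, and both steps were called, at 0.96 ± 0.25 (edgeR adjusted p = 0.00119) and −1.94 ± 0.27 (edgeR adjusted p = 1.4e-06). Cxcl1 rose from 2.03 ± 0.526 to 5.44 ± 0.459 CPM and fell again to 1.75 ± 0.294 CPM, with steps of 1.44 ± 0.25 and −1.59 ± 0.25 (edgeR adjusted p = 1.04e-05 and 1.2e-05). Its myoblast and myotube libraries overlapped (−0.16 ± 0.27, edgeR adjusted p = 0.638). On day 1 the background of called genes was 63.6%, with 6 of 9 members called, and from day 1 to myotubes it was 35.6%, with 9 of 9 members called, 2 higher and 7 lower.

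Cxcl12 stood at 53.9 ± 0.557 CPM in myoblasts and reached 168 ± 0.653 CPM on day 1 (1.65 ± 0.086, edgeR adjusted p = 3.97e-16), then 139 ± 6.74 CPM in myotubes. The step down from day 1, −0.24 ± 0.083 (edgeR adjusted p = 0.0218), missed the threshold without replicates 2 or 3 or with plate position in the fit (edgeR adjusted p = 0.0853, 0.0589 and 0.0849). Lif was at 1.11, 1.2 and 0.926 CPM in myoblasts, 2.31, 2.91 and 3.85 on day 1 and 6.47, 7.85 and 9.91 in myotubes. No library of one state overlapped with another, and the steps of 1.48 ± 0.35 and 1.44 ± 0.3 were both called (edgeR adjusted p = 0.000567 and 0.00036). Il11 gave no call on day 1 (0.675 ± 0.0577 against 0.653 ± 0.167 CPM) and was at 1.78 ± 0.0307 CPM in myotubes, a step of 1.46 ± 0.41 (edgeR adjusted p = 0.00667) that was lost with plate position in the fit (1.03, edgeR adjusted p = 0.146), without replicates 1 or 2 (edgeR adjusted p = 0.0708 and 0.078) and without the count filter (edgeR adjusted p = 0.0822).

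Csf1, the most abundant member per kilobase in myoblasts, fell from 186 ± 16.3 CPM to 72.3 ± 1.63 CPM on day 1 and 56.9 ± 3.66 CPM in myotubes. The step to day 1 was −1.35 ± 0.09 (edgeR adjusted p = 9.71e-14). The other, −0.31 ± 0.092 (edgeR adjusted p = 0.00898), missed the threshold without replicates 2 (edgeR adjusted p = 0.0619) or with plate position (edgeR adjusted p = 0.116). Cx3cl1 overlapped between myoblasts and day 1 (48.2 ± 2.63 and 44.7 ± 3.52 CPM) and stood at 29 ± 1.18 CPM in myotubes, −0.58 ± 0.11 from day 1 (edgeR adjusted p = 0.00013). The proliferation markers moved in the same direction as Csf1, and their part in its level was not tested.

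In control myoblasts, Ccl2, Cxcl5, Cxcl12 and Cx3cl1 fell with all 3 inhibitors and Ccl7 with piericidin and oligomycin, while Il11 rose with piericidin and antimycin and Lif with antimycin and oligomycin. With piericidin, 6 members were lower and 1 higher of 9 tested, against a background of 61.7% of genes called, 30.8% lower and 30.9% higher. With antimycin 4 were lower and 2 higher (background 63.2%, 31.1% lower and 32.1% higher), and with oligomycin 5 were lower and 2 higher (background 50.8%, 26.3% lower and 24.5% higher). The members' median log2 fold change was −1.76 for piericidin, −0.63 for antimycin and −0.74 for oligomycin, while the medians of all genes tested were −0.0037, −0.0048 and −0.015. Because most genes in these cells passed the threshold, the counts by themselves say little of the members, and the sizes are given below. All 3 DMSO control libraries sat in outer wells, as read from the position code in the labels, and most treated libraries in inner wells. With plate position in the fit 19 of the 20 calls were kept, all but that of Lif with oligomycin.

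**Figure D2:**
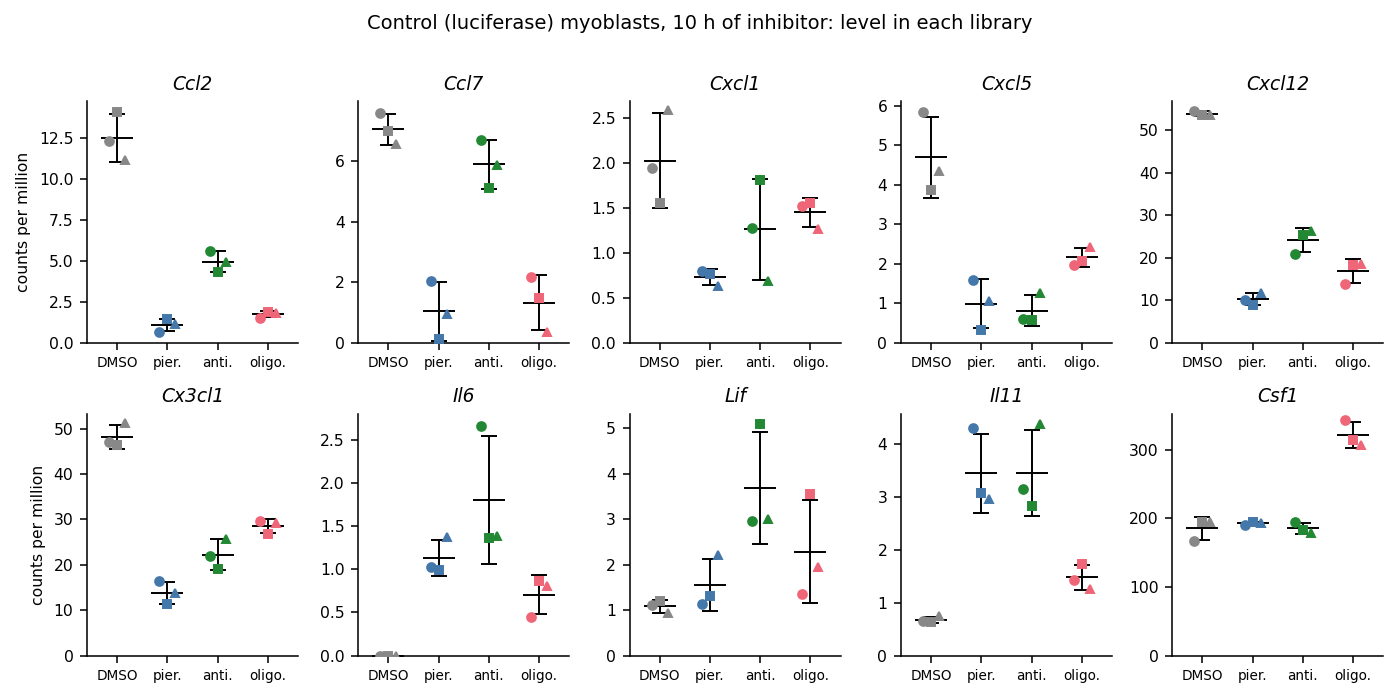
CPM of the 10 genes in each library of control myoblasts after 10 h of DMSO, piericidin, antimycin or oligomycin (marker shape gives the replicate number, bars the mean ± SD, n = 3). Ccl7 with antimycin (5.89 CPM) sits near DMSO (7.05 CPM) while piericidin and oligomycin lie at 1.03 and 1.32 CPM, and Csf1 leaves its DMSO range with oligomycin.

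The monocyte chemokines fell most with piericidin and oligomycin, whereas with antimycin Cxcl5 did. Ccl2 was at 12.3, 14.1 and 11.2 CPM with DMSO, 0.68, 1.43 and 1.16 with piericidin, 5.62, 4.3 and 4.95 with antimycin and 1.53, 1.9 and 1.84 with oligomycin. Every treated library lay below every DMSO library, and the DMSO mean was 11.5-fold that of piericidin, 7.13-fold that of oligomycin and 2.53-fold that of antimycin. The log2 fold changes were −3.47 ± 0.21 for piericidin, −2.82 ± 0.19 for oligomycin and −1.29 ± 0.17 for antimycin (edgeR adjusted p = 6.26e-15, 1.74e-13 and 1.25e-07). Ccl7, its neighbour on chromosome 11, was at 7.6, 6.98 and 6.57 CPM with DMSO, 2.04, 0.11 and 0.949 with piericidin, 6.7, 5.1 and 5.87 with antimycin and 2.16, 1.47 and 0.345 with oligomycin. Antimycin libraries overlapped with DMSO, whereas piericidin and oligomycin libraries were all lower. The changes were −2.73 ± 0.37 for piericidin (edgeR adjusted p = 1.73e-07), −0.21 ± 0.29 for antimycin (edgeR adjusted p = 0.544) and −2.34 ± 0.34 for oligomycin (edgeR adjusted p = 1.09e-06).

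The direct comparisons of inhibitors showed the difference itself. With antimycin, Ccl2 was 4.55-fold and Ccl7 5.7-fold higher than with piericidin, at log2 2.18 ± 0.23 and 2.52 ± 0.38 (edgeR adjusted p = 4.37e-09 and 2.8e-06), and every antimycin library lay above every piericidin library. Against oligomycin, antimycin gave 1.53 ± 0.21 for Ccl2 and 2.13 ± 0.35 for Ccl7 (edgeR adjusted p = 2.94e-07 and 7.73e-06). Between piericidin and oligomycin neither gene passed the threshold (edgeR adjusted p = 0.0928 and 0.512). In all, 5 of 9 members were called between antimycin and piericidin, all higher with antimycin (background 37.2%, 19.3% higher and 17.9% lower), 7 when antimycin was set against oligomycin (background 50%) and 5 for the pair of piericidin and oligomycin (background 39.2%). Several of these were lost when replicates or the count filter were left out. For antimycin against piericidin this held for Lif, 1.24 as fitted (edgeR adjusted p = 0.081 and 0.191 without replicates 1 or 2, and 0.0905 without the filter). For antimycin against oligomycin it held for Il11, also 1.24 (edgeR adjusted p = 0.0972 and 0.219 without replicates 1 or 3, and 0.187 without the filter). For piericidin against oligomycin it held for Il11, 1.23 (edgeR adjusted p = 0.225 and 0.117 without replicates 1 or 3, and 0.239 without the filter), and for Cxcl5, which went from −1.09 to −0.71 without replicates 2 (edgeR adjusted p = 0.128), to −1.65 without replicates 1 and was lost without replicates 3 (edgeR adjusted p = 0.0549).

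Among the neutrophil chemokines, Cxcl5 was at 5.84, 3.88 and 4.35 CPM with DMSO, 1.59, 0.33 and 1.05 with piericidin, 0.591, 0.566 and 1.27 with antimycin and 1.98, 2.08 and 2.42 with oligomycin. All treated libraries were lower, at −2.19 ± 0.29, −2.49 ± 0.3 and −1.1 ± 0.25 (edgeR adjusted p = 9.47e-08, 1.74e-08 and 0.000391). Unlike Ccl7, Cxcl5 did not differ between antimycin and piericidin (−0.29 ± 0.38, edgeR adjusted p = 0.613). Cxcl1 was lower with piericidin, at 0.732 ± 0.0871 against 2.03 ± 0.526 CPM (−1.42 ± 0.38, edgeR adjusted p = 0.00183), a call lost without replicates 3 (−1.15, edgeR adjusted p = 0.0509). Its antimycin and oligomycin libraries overlapped with DMSO (−0.63 ± 0.35 and −0.45 ± 0.34, edgeR adjusted p = 0.117 and 0.274).

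Cxcl12 and Cx3cl1 fell with every inhibitor. Cxcl12 was at 54.6, 53.7 and 53.5 CPM with DMSO, 9.98, 8.91 and 11.7 with piericidin, 20.9, 25.3 and 26.3 with antimycin and 13.8, 18.3 and 18.6 with oligomycin. No treated library overlapped with DMSO, and the changes were −2.37 ± 0.14, −1.12 ± 0.13 and −1.67 ± 0.13 (edgeR adjusted p = 3.35e-15, 7.81e-09 and 4.45e-12). The 3 inhibitors differed from each other, in the order antimycin, oligomycin, piericidin from high to low, with 0.55 ± 0.14 for antimycin over oligomycin and −0.7 ± 0.15 for piericidin against it (edgeR adjusted p = 0.00126 and 0.000288). Cx3cl1 was at 48.2 ± 2.63 CPM with DMSO. Piericidin left 13.9 ± 2.44 CPM, antimycin 22.3 ± 3.35 and oligomycin 28.6 ± 1.55, again with no overlap (−1.76 ± 0.11, −1.07 ± 0.11 and −0.74 ± 0.11, edgeR adjusted p = 2.97e-14, 7.54e-10 and 7.68e-07). The order of antimycin and oligomycin was thus the other way round for Cx3cl1, at −0.33 ± 0.11 (edgeR adjusted p = 0.0147), a difference that missed the threshold without replicates 1 or 2 (edgeR adjusted p = 0.0937 and 0.108) or without the count filter (edgeR adjusted p = 0.0608).

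Of the IL-6 family, Lif and Il11 had low counts and each was called higher with 2 of the 3 inhibitors. Il11 had 7, 9 and 8 counts with DMSO, 38, 28 and 28 with piericidin, 32, 25 and 38 with antimycin and 16, 20 and 11 with oligomycin. It passed the count minimum only through the piericidin and antimycin libraries. Every treated library exceeded every DMSO library, and the means were 5.11-fold, 5.12-fold and 2.19-fold higher. Piericidin and antimycin passed the threshold (2.37 ± 0.49 and 2.38 ± 0.49, edgeR adjusted p = 0.000123 and 0.000111, and 0.00135 and 0.0012 without the count filter), and oligomycin did not (1.14 ± 0.52, edgeR adjusted p = 0.0661, and 0.372 without the filter). Lif was at 1.11, 1.2 and 0.926 CPM with DMSO, 1.13, 1.32 and 2.21 with piericidin, 2.96, 5.1 and 2.99 with antimycin and 1.35, 3.55 and 1.96 with oligomycin. Piericidin overlapped with DMSO (0.56 ± 0.43, edgeR adjusted p = 0.271), whereas antimycin and oligomycin were called higher (1.79 ± 0.41 and 1.09 ± 0.41, edgeR adjusted p = 0.000327 and 0.0288). The oligomycin call rested on the second library, at 3.55 CPM, and fell to 0.7 without replicates 2 (edgeR adjusted p = 0.27). It was also lost without replicates 3 (edgeR adjusted p = 0.104), with plate position in the fit (edgeR adjusted p = 0.136) and without the count filter (edgeR adjusted p = 0.176).

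Il6 did not pass the count minimum in any fit. It had 0 counts in each of the 3 DMSO libraries of control myoblasts, 9, 9 and 13 with piericidin, 27, 12 and 12 with antimycin and 5, 10 and 7 with oligomycin. All treated libraries were above DMSO. Against a floor of 3 counts per library, the mean was at least 4.41-fold higher with piericidin, at least 7.04-fold with antimycin and at least 2.76-fold with oligomycin. Without the count filter the edgeR adjusted p values were 9.33e-06, 2.77e-07 and 0.000261. With LbNOX the antimycin libraries had 4, 3 and 3 counts, next to 0, 4 and 0 with DMSO, and with mitoLbNOX 13, 9 and 8 next to 0, 4 and 0 (without the filter, edgeR adjusted p = 0.454 and 0.00957).

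Csf1 stood apart from the other members. It was at 167, 195 and 195 CPM with DMSO, 191, 194 and 193 with piericidin, 195, 183 and 178 with antimycin and 343, 314 and 306 with oligomycin. Only the oligomycin libraries left the DMSO range, at 0.8 ± 0.052 (edgeR adjusted p = 6.23e-14), and piericidin and antimycin gave 0.09 ± 0.053 and 0.04 ± 0.053 (edgeR adjusted p = 0.149 and 0.505). Both other inhibitors differed from oligomycin, at −0.72 ± 0.052 for piericidin and −0.76 ± 0.053 for antimycin (edgeR adjusted p = 2.82e-12 and 3.13e-13).

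The transgenes were made to ask whether oxidizing NADH changes the response to an inhibitor. With piericidin, fewer members were called in the 3 transgene lines than in control myoblasts, and so were fewer of all genes tested. In LbNOX myoblasts 1 of 9 members was called lower (background 8.87%, 5.01% higher and 3.86% lower), in mitoLbNOX myoblasts 2 lower (background 11.2%, 6.37% higher and 4.82% lower) and in NDI1 myoblasts 0 (background 0.00835%, 1 gene). An unadjusted p under 0.05 was found for 3 members in LbNOX, 6 in mitoLbNOX and 0 in NDI1 myoblasts, and DESeq2 called 1, 2 and 0. Here and below, the background shares are of edgeR adjusted calls. No share of all genes was taken for unadjusted p or for DESeq2. Ccl2 with piericidin was at 5.3, 6.68 and 7.19 CPM in LbNOX, 5.97, 5.12 and 6.06 in mitoLbNOX and 10.8 and 10.6 in NDI1 myoblasts, all above the 0.68 to 1.43 CPM of control myoblasts with piericidin. It was still lower than with DMSO in LbNOX (−0.76 ± 0.17, edgeR adjusted p = 0.00283) and mitoLbNOX (−1.11 ± 0.17, edgeR adjusted p = 1.3e-05). The LbNOX call was lost without replicates 1 or 3 (edgeR adjusted p = 0.112 and 0.0642), as was that of Cxcl12 in mitoLbNOX (−0.41 ± 0.12, edgeR adjusted p = 0.0288) without any 1 of the replicates (edgeR adjusted p = 0.154, 0.103 and 0.106).

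**Figure D3:**
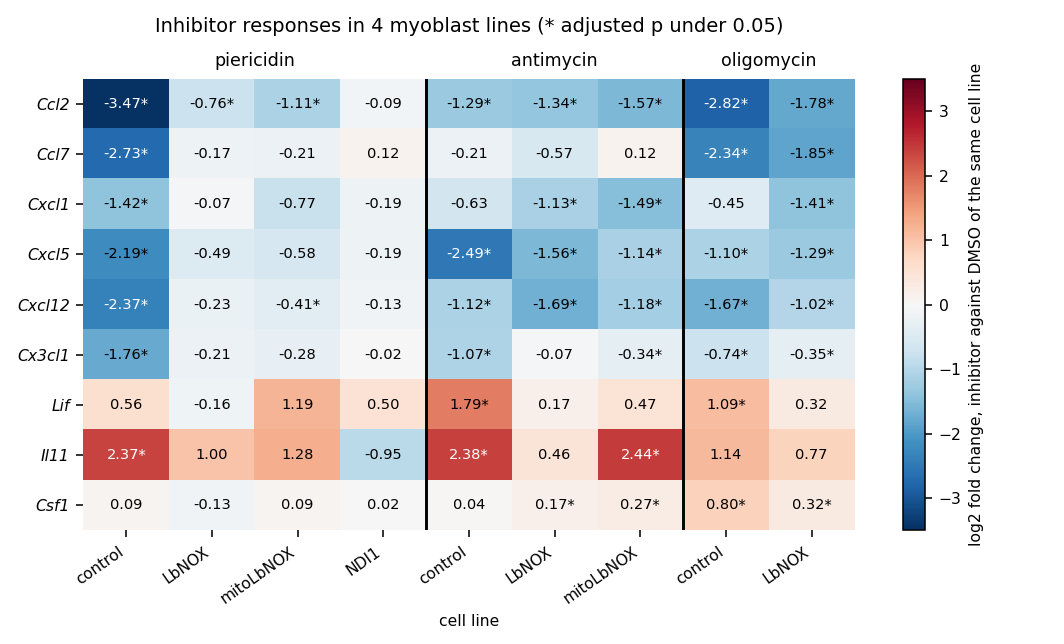
Log2 fold change of 9 genes (Il6 was not tested) for each inhibitor against DMSO of the same myoblast line, in control, LbNOX, mitoLbNOX and NDI1 myoblasts, with an asterisk where the edgeR adjusted p was under 0.05. The piericidin changes of Ccl2 (−3.47), Ccl7 (−2.73) and Cxcl12 (−2.37) in control myoblasts shrink in the transgene lines. With antimycin Ccl2 is near its control value (−1.29) in LbNOX (−1.34), while Cx3cl1 goes from −1.07 to −0.07.

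The difference between lines was tested as an interaction, the inhibitor's log2 fold change in the transgene line minus that in control myoblasts. With piericidin and LbNOX it was 2.72 ± 0.27 for Ccl2, 2.56 ± 0.47 for Ccl7, 1.71 ± 0.36 for Cxcl5, 2.13 ± 0.19 for Cxcl12 and 1.56 ± 0.15 for Cx3cl1 (edgeR adjusted p = 1.58e-09, 5e-05, 0.000238, 8.36e-11 and 1.31e-09). The same 5 genes were called for mitoLbNOX (1.48 to 2.52) and for NDI1 (1.75 to 3.38). In all, 7 members were called with LbNOX (background 44.3%), 5 with mitoLbNOX (background 42.8%) and 6 with NDI1 (background 42.7%). Cxcl1 was called with LbNOX (1.35 ± 0.48, edgeR adjusted p = 0.0231), and this was lost without replicates 2 or 3 (edgeR adjusted p = 0.146 and 0.281) or the count filter (edgeR adjusted p = 0.16). These 3 interactions share the control myoblast libraries.

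For Il11 and Lif the tests of the difference gave 2 calls, Il11 with piericidin and NDI1 and Lif with antimycin and LbNOX. Il6 could be tested only without the count filter, where its interactions were called for piericidin with LbNOX and NDI1 (edgeR adjusted p = 0.00451 and 0.0289) and for antimycin with LbNOX (edgeR adjusted p = 0.0208) and not for oligomycin with LbNOX (edgeR adjusted p = 0.354) or piericidin or antimycin with mitoLbNOX (edgeR adjusted p = 0.0618 and 0.165). These rest on 0 counts in the control DMSO libraries, so no size is given. Its counts with piericidin were 0, 2 and 0 in LbNOX, 5, 7 and 2 in mitoLbNOX and 2 and 4 in NDI1 myoblasts. Il11 had 10, 10 and 3 counts with piericidin in LbNOX myoblasts, 5, 6 and 2 in mitoLbNOX and 0 and 4 in NDI1, next to 38, 28 and 28 in control myoblasts. The control libraries lay above all of them. With DMSO, too, Il11 was lower in these lines, at 0.389, 0.145 and 0.38 against 0.675 CPM in control myoblasts, a difference that was not called. The interaction with NDI1 was called, at −3.32 ± 1 (edgeR adjusted p = 0.0108), against −1.37 ± 0.8 and −1.09 ± 1.1 for LbNOX and mitoLbNOX (edgeR adjusted p = 0.174 and 0.441). It was lost without the count filter (edgeR adjusted p = 0.0557), which Il11 had passed only through the piericidin and antimycin libraries of control myoblasts, where it is high. Without replicates 1 it was −2.13 (edgeR adjusted p = 0.271) and without replicates 2 it was −7.39, with 1 library per NDI1 condition left in each case. With antimycin, Lif was at 1.47, 1.2 and 1.96 CPM in LbNOX and 0.693, 1.18 and 1.65 in mitoLbNOX myoblasts, all below the 2.96 to 5.1 CPM of control myoblasts. The interaction was −1.62 ± 0.58 for LbNOX (edgeR adjusted p = 0.0212), which missed the threshold without any 1 of the replicates (edgeR adjusted p = 0.0633, 0.0892 and 0.0866), without the count filter (edgeR adjusted p = 0.109) and with plate position (edgeR adjusted p = 0.0574). For mitoLbNOX it was −1.32 ± 0.61 (edgeR adjusted p = 0.0986). The interaction of antimycin and LbNOX for Il11 missed the threshold, at −1.92 (edgeR adjusted p = 0.0516). It passed with only the conditions compared (edgeR adjusted p = 0.0462) and was −2.72 without replicates 2.

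With antimycin Ccl2, Cxcl1, Cxcl5 and Cxcl12 fell in LbNOX and mitoLbNOX myoblasts. In LbNOX myoblasts 4 members were lower and 1 higher (background 46.1%), and in mitoLbNOX 5 were lower and 2 higher (background 47.7%). In LbNOX the call of Cxcl1 was lost without replicates 1 or 2 (edgeR adjusted p = 0.107 and 0.0531) and that of Csf1 without replicates 1 or 3 (edgeR adjusted p = 0.0512 and 0.18) or the count filter (edgeR adjusted p = 0.157). In mitoLbNOX those of Cx3cl1 and Il11 were lost without replicates 2 (edgeR adjusted p = 0.0771 and 0.0941), where Il11 went from 2.44 to 1.62. Ccl2 in LbNOX was at 10.6, 10.7 and 11.7 CPM with DMSO and 4.5, 3.61 and 4.54 with antimycin (−1.34 ± 0.17, edgeR adjusted p = 2.08e-07), next to −1.29 in control myoblasts, and the interaction was −0.04 ± 0.24 (edgeR adjusted p = 0.945). Ccl7 was not called, at 4.73 ± 0.529 against 7.27 ± 1.32 CPM in LbNOX (−0.57 ± 0.3, edgeR adjusted p = 0.12, and 0.0365 with DESeq2) and 7.2 ± 0.87 against 6.84 ± 0.351 CPM in mitoLbNOX (0.12 ± 0.29, edgeR adjusted p = 0.763). Cx3cl1 was at 42.7, 35.1 and 41.4 CPM with antimycin in LbNOX myoblasts, overlapping with 48.6, 41.9 and 37.8 with DMSO, and its interaction was 1.00 ± 0.15 (edgeR adjusted p = 1.82e-06). In mitoLbNOX myoblasts that interaction was 0.73 ± 0.15 (edgeR adjusted p = 0.000418). Cxcl12 fell further with LbNOX than in control myoblasts, to 14.2 ± 2.47 CPM (interaction −0.57 ± 0.18, edgeR adjusted p = 0.0109), which was lost without replicates 2 or 3 (edgeR adjusted p = 0.154 and 0.0557). Cxcl5 fell less with LbNOX (interaction 0.93 ± 0.38, edgeR adjusted p = 0.0425) and with mitoLbNOX (1.35 ± 0.38, edgeR adjusted p = 0.00713). The former was lost without the count filter, with DESeq2 and without replicates 1 or 2 (0.51 and 0.91, edgeR adjusted p = 0.452 and 0.0766) and was 1.45 without replicates 3, and the latter was lost without replicates 1 (1, edgeR adjusted p = 0.185). Of 9 members, 4 had a called interaction of antimycin with LbNOX (background 51.5%) and 3 with mitoLbNOX (background 31.7%).

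Oligomycin in LbNOX myoblasts lowered 6 members and raised 1 (background 35.2%, 17.7% lower and 17.5% higher). Without replicates 1, Cxcl1 went from −1.41 to −0.9 and Cx3cl1 from −0.35 to −0.19, and both calls were lost (edgeR adjusted p = 0.109 and 0.297). Ccl7 had 20, 15 and 20 counts, next to 88, 90 and 89 with DMSO, a change of −1.85 ± 0.33 (edgeR adjusted p = 4.67e-05) that did not differ from control myoblasts beyond its error (interaction 0.49 ± 0.48, edgeR adjusted p = 0.64). Csf1 rose less than in control myoblasts, from 208 ± 11.6 to 254 ± 3.14 CPM (0.32 ± 0.052, edgeR adjusted p = 1.5e-05), with an interaction of −0.49 ± 0.074 (edgeR adjusted p = 3.46e-05). Of the interactions 3 were called (background 7.98%, 3.8% higher and 4.18% lower), for Csf1, Ccl2 (1.04 ± 0.27, edgeR adjusted p = 0.0123) and Cxcl12 (0.64 ± 0.18, edgeR adjusted p = 0.0244). That of Ccl2 was lost without replicates 1 or 3 (edgeR adjusted p = 0.342 and 0.124) or the count filter (edgeR adjusted p = 0.146), and that of Cxcl12 without any 1 of the replicates (edgeR adjusted p = 0.319, 0.0782 and 0.0654).

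Without inhibitor, the edgeR calls between transgene lines and control myoblasts were Cxcl5 and Cxcl1. Cxcl5 was at 5.84, 3.88 and 4.35 CPM in control, 10.7, 10.3 and 11.2 in LbNOX, 8.36, 7.54 and 8.37 in mitoLbNOX and 21.4 and 21.5 in NDI1 myoblasts, with no overlap between control and any transgene. The differences were 1.2 ± 0.21 for LbNOX and 2.19 ± 0.23 for NDI1 (edgeR adjusted p = 0.000558 and 4.83e-08), and 0.79 ± 0.22 for mitoLbNOX, which missed the threshold with edgeR (adjusted p = 0.052) and passed it with DESeq2 (adjusted p = 0.0172). Cxcl1 had 21, 22 and 28 counts in control and 107 and 109 in NDI1 myoblasts (2.01 ± 0.32, edgeR adjusted p = 9.07e-05). It was not called in that comparison without replicates 2 (1.78, edgeR adjusted p = 0.069). In all, 1 of 9 members was called with LbNOX (background 2.68%), 0 with mitoLbNOX (background 1.77%, with 3 at an unadjusted p under 0.05 and 1 called by DESeq2) and 2 with NDI1 (background 4.61%), where DESeq2 also called Cx3cl1 (−0.37, adjusted p = 0.0354, against 0.0682 with edgeR).

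Chloramphenicol for 48 h, with 2 libraries per condition, lowered 2 of 7 members in control myoblasts (background 8.45%). Cxcl12 was at 51 and 67.6 CPM with DMSO and 24 and 28.2 with chloramphenicol (−1.13 ± 0.13, edgeR adjusted p = 0.00119). Cx3cl1 went from 40.1 and 38.2 to 25.9 and 27.5 CPM (−0.5 ± 0.13, edgeR adjusted p = 0.0471), and this call was lost with either library of either group left out (edgeR adjusted p = 0.118 to 0.193). In LbNOX myoblasts 0 members were called by edgeR (background 0.931%), with 2 at an unadjusted p under 0.05 and 1 called by DESeq2. Cxcl12 there was at 64.8 and 70.2 CPM with DMSO and 45.8 and 45.2 with chloramphenicol (−0.54 ± 0.13, edgeR adjusted p = 0.128), and it was called without the count filter (edgeR adjusted p = 0.000462) and with DESeq2 (adjusted p = 0.0251). In these fits no interaction was called with edgeR (background 0.53%) or DESeq2, 1 had an unadjusted p under 0.05, and the one of Cxcl12 was 0.6 ± 0.19 (edgeR adjusted p = 0.301), called only without the count filter (0.63, edgeR adjusted p = 0.0149). Lif, Il11 and Il6 did not pass the count minimum in these libraries.

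In day 1 cells, oligomycin raised the neutrophil chemokines. Cxcl1 was at 5.72, 4.91 and 5.69 CPM with DMSO, 6.92, 5.28 and 6.61 with piericidin and 16.3, 18.2 and 23.2 with oligomycin. The oligomycin libraries held the highest Cxcl1 of all 35 conditions, at 1.85 ± 0.18 over DMSO (edgeR adjusted p = 1.76e-05). Cxcl5 went from 9.32, 9.82 and 8.07 to 26.9, 23 and 35.4 CPM with oligomycin (1.67 ± 0.16, edgeR adjusted p = 1.98e-05), again the highest of all conditions. With piericidin, Cxcl5 was at 14.8, 12.7 and 14.2 CPM, above DMSO in each library, but was not called (0.62 ± 0.17, edgeR adjusted p = 0.0789) except without the count filter (edgeR adjusted p = 0.00763). Oligomycin also gave 0.63 ± 0.2 for Ccl7, −0.35 ± 0.062 for Cxcl12 and −0.39 ± 0.1 for Cx3cl1 (edgeR adjusted p = 0.049, 0.00174 and 0.0191), so that 3 members were higher and 2 lower of 8 tested (background 20.7%). The Ccl7 call was lost without any 1 of the replicates (edgeR adjusted p = 0.219, 0.196 and 0.117) with DESeq2 (adjusted p = 0.103) and without the count filter (edgeR adjusted p = 0.161), and that of Cx3cl1 without replicates 2 or 3 (edgeR adjusted p = 0.147 and 0.0517).

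Piericidin in day 1 cells changed 1 of 8 members (background 2.75%). Csf1 fell from 70.5, 72.6 and 73.7 CPM to 42.6, 55.4 and 45.3 CPM (−0.59 ± 0.12, edgeR adjusted p = 0.0222), a call that was lost without any 1 of the replicates (edgeR adjusted p = 0.245, 0.0894 and 0.11). Ccl2 was at 3.55, 2.01 and 3.99 CPM with piericidin and 5.45, 5.73 and 4.92 with DMSO, lower in each library but not called (−0.74 ± 0.29, edgeR adjusted p = 0.235). Cx3cl1 was not called (−0.34, edgeR adjusted p = 0.121) except without the count filter (edgeR adjusted p = 0.035) and with a replicate block (edgeR adjusted p = 0.041). Il6 and Il11 did not pass the count minimum in day 1 cells.

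**Figure D4:**
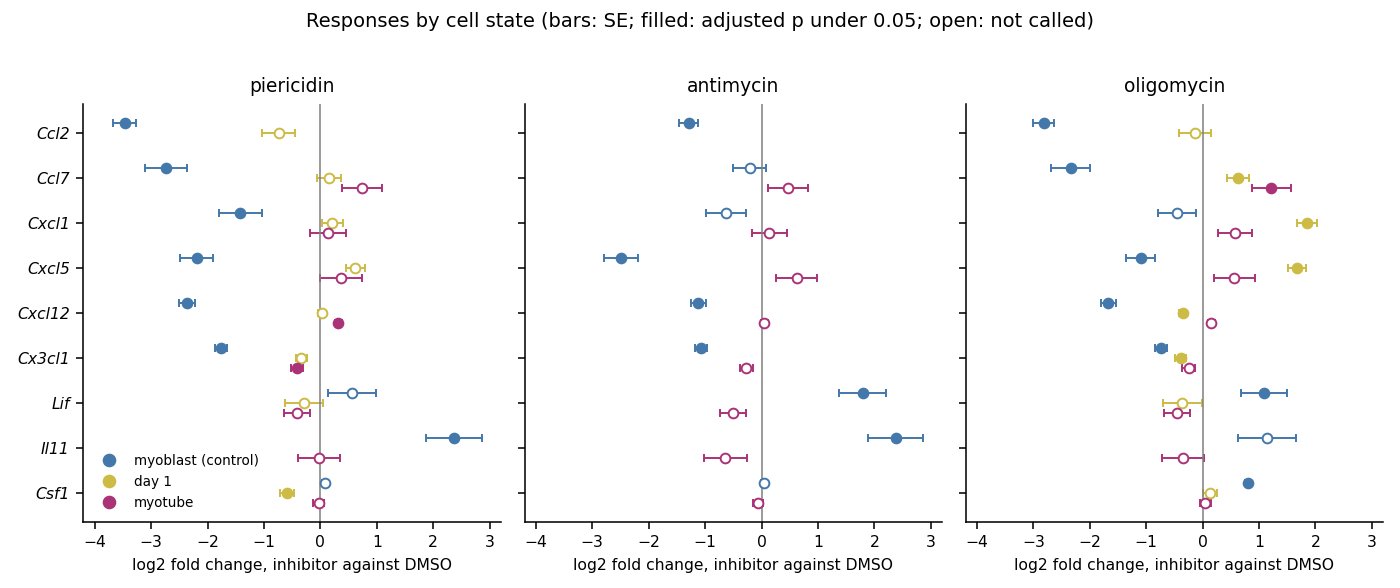
Log2 fold change of 9 genes for piericidin, antimycin and oligomycin against DMSO in control myoblasts, day 1 cells and untransduced myotubes (points with SE, n = 3 against 3, filled where the edgeR adjusted p was under 0.05). Antimycin was not given on day 1, and genes under the count minimum of a state have no point. The large falls of Ccl2, Ccl7, Cxcl5 and Cxcl12 occur in myoblasts, and Cxcl1 and Cxcl5 rise with oligomycin on day 1.

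In untransduced myotubes the members moved little. Piericidin gave 2 calls of 8 tested (background 8.99%), antimycin 0 (background 12.9%, with 2 at an unadjusted p under 0.05 and 0 called by DESeq2) and oligomycin 1 (background 33.3%). Cxcl12 was at 145, 140 and 131 CPM with DMSO and 174, 170 and 172 with piericidin, higher in each library (0.32 ± 0.061, edgeR adjusted p = 0.00103, or 0.051 without replicates 2). Cx3cl1 went from 29.4, 30 and 27.7 to 19.9, 23.5 and 21.3 CPM (−0.42 ± 0.11, edgeR adjusted p = 0.0169), and this call was lost without any 1 of the replicates (edgeR adjusted p = 0.198, 0.0878 and 0.0685). Ccl7 rose with oligomycin, from 8, 21 and 12 to 37, 32 and 31 counts (1.22 ± 0.35, edgeR adjusted p = 0.00844), without overlap. That call was lost without replicates 1 or 3 (edgeR adjusted p = 0.153 and 0.0929) and without the count filter (edgeR adjusted p = 0.109). Ccl2, with at most 22 counts in any untransduced myotube library, and Il6 did not pass the count minimum.

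The response to each inhibitor was compared between states as an interaction. From control myoblasts to myotubes, 7 of 9 members were called for piericidin (background 46.5%), 6 for antimycin (background 47.9%) and 9 for oligomycin (background 29%). For piericidin the differences were 3.51 ± 0.64 for Ccl7, 2.59 ± 0.45 for Cxcl5 and 2.73 ± 0.13 for Cxcl12 (edgeR adjusted p = 4.92e-05, 2.42e-05 and 5.73e-16). Ccl2 gave 3.84 ± 0.53 (edgeR adjusted p = 7.12e-07), but with 10, 6 and 6 counts in the DMSO libraries of myotubes, under the count minimum there, it left little room for a fall of the size seen in myoblasts. The same holds for Ccl7, whose level in myotubes with DMSO, 1.28 CPM, was already near the 1.03 CPM of control myoblasts with piericidin. Il11 went the other way, at −2.34 ± 0.55 (edgeR adjusted p = 0.000907), with −0.02 ± 0.37 for piericidin within myotubes. For antimycin Lif gave −2.24 ± 0.45 and Il11 −2.97 ± 0.56 (edgeR adjusted p = 0.000175 and 6.58e-05). Between control myoblasts and day 1 cells, 8 of 9 members were called for piericidin (background 46.6%) and 7 for oligomycin (background 24.9%), with Cxcl1 at 2.33 ± 0.36 and Cxcl5 at 2.81 ± 0.36 for oligomycin (edgeR adjusted p = 1.23e-05 and 9.09e-07). For oligomycin 4 of the 9 calls between myoblasts and myotubes, for Cxcl1, Lif, Cx3cl1 and Il11, were lost without at least 1 of the replicates (edgeR adjusted p up to 0.416, 0.172, 0.128 and 0.334). State, transgene, doxycycline and serum cannot be told apart in these differences, and the comparisons share the control myoblast libraries.

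BAM15, 5% oxygen and the combinations were given to myotubes alone. Per the study's methods, 5% oxygen began the evening before the other treatments, so its exposure was longer. The rise of Ccl7 with oligomycin, 3.44, 2.71 and 2.95 CPM, was not seen when BAM15 (1.22, 1.59 and 0.9 CPM) or 5% oxygen (1.2, 1.01 and 1.41 CPM) was added. Against oligomycin alone these were −1.28 ± 0.35 and −1.31 ± 0.36 (edgeR adjusted p = 0.00766 and 0.00603). The former was lost without replicates 1 or 3 (edgeR adjusted p = 0.0826 and 0.122) and the latter without replicates 1 (edgeR adjusted p = 0.0635), and both without the count filter (edgeR adjusted p = 0.096 and 0.0679). With piericidin and oligomycin together Ccl7 stayed at 2.88, 1.96 and 3.01 CPM (−0.22 ± 0.33, edgeR adjusted p = 0.707). Cxcl1 was lowest of all conditions with 5% oxygen and oligomycin, at 0.982, 0.505 and 0.585 CPM against 1.86, 3.13 and 2.86 with oligomycin (−1.9 ± 0.35, edgeR adjusted p = 0.000129). For 5% oxygen with DMSO it was at 0.631, 0.944 and 1.31 CPM, lower than each DMSO library but not called (−0.84 ± 0.34, edgeR adjusted p = 0.0772).

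**Figure D5:**
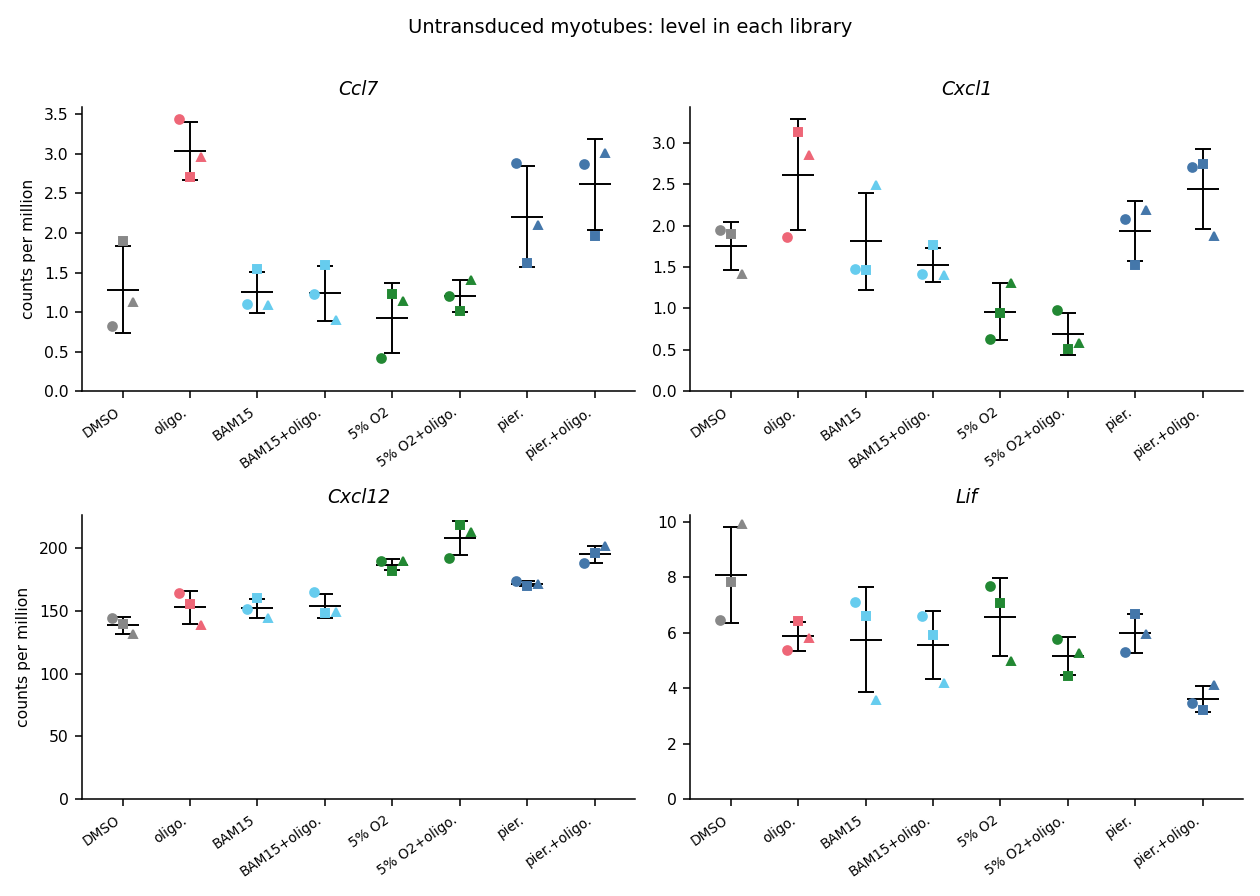
CPM of Ccl7, Cxcl1, Cxcl12 and Lif in each library of 8 of the 9 conditions of untransduced myotubes (antimycin is not drawn) (marker shape gives the replicate number, bars the mean ± SD, n = 3). Ccl7 is highest with oligomycin (3.03 CPM), Cxcl12 is highest in the 5% oxygen conditions (187 and 208 CPM) and with piericidin and oligomycin together (195 CPM), and Cxcl1 is lowest in 5% oxygen with oligomycin (0.691 CPM).

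Cxcl12 was raised by 5% oxygen. It was at 190, 182 and 190 CPM in 5% oxygen with DMSO, above all 3 DMSO libraries in ambient oxygen (0.43 ± 0.06, edgeR adjusted p = 5.19e-06). With oligomycin added it was at 193, 219 and 213 CPM, its highest level in the series and above oligomycin alone (0.46 ± 0.06, edgeR adjusted p = 1.42e-06). Piericidin with oligomycin also gave more Cxcl12 than oligomycin, 188, 197 and 202 against 164, 155 and 139 CPM (0.35 ± 0.06, edgeR adjusted p = 0.000122), and less Lif, 3.49, 3.23 and 4.14 against 5.39, 6.44 and 5.81 CPM (−0.71 ± 0.24, edgeR adjusted p = 0.0369). The Lif call was lost without replicates 1 or 2 (edgeR adjusted p = 0.143 and 0.359) or the count filter (edgeR adjusted p = 0.11). BAM15 lowered Cx3cl1, from 29 ± 1.18 to 21.4 ± 2.4 CPM (−0.43 ± 0.11, edgeR adjusted p = 0.0055, or 0.0543 without replicates 2), and Csf1, from 56.9 ± 3.66 to 46.3 ± 5.57 CPM (−0.28 ± 0.094, edgeR adjusted p = 0.028). The Csf1 call was lost without replicates 1 or 3 (edgeR adjusted p = 0.107 and 0.267). In 5% oxygen Csf1 missed the threshold (−0.25, edgeR adjusted p = 0.0601). There it passed with DESeq2 size factors (edgeR adjusted p = 0.0449), the DESeq2 Wald test (adjusted p = 0.0381) and only the conditions compared (edgeR adjusted p = 0.031). Calls came to 2 of 8 members with BAM15 (background 25.4%), 1 with 5% oxygen (background 22.1%), 2 with BAM15 and oligomycin (background 26.1%), 2 with piericidin and oligomycin (background 20.9%) and 3 with 5% oxygen and oligomycin (background 33.3%). The remaining call, Cx3cl1 with BAM15 and oligomycin (−0.3 ± 0.11, edgeR adjusted p = 0.0494), was lost without any 1 of the replicates (edgeR adjusted p = 0.367, 0.0926 and 0.079), without the count filter (edgeR adjusted p = 0.163) and with DESeq2 (adjusted p = 0.0579).

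In adenovirus-transduced myotubes, where GFP conditions had 2 libraries, oligomycin with GFP gave 2 calls of 8 (background 25.9%). Cxcl12 went from 139 and 136 to 116 and 115 CPM (−0.27 ± 0.061, edgeR adjusted p = 0.00461) and Csf1 from 49.4 and 51.2 to 60.2 and 61.9 CPM (0.27 ± 0.087, edgeR adjusted p = 0.0361). The former was lost without replicates 1 or 2 (edgeR adjusted p = 0.157 and 0.105) and the latter without any 1 replicate number (edgeR adjusted p = 0.208, 0.187 and 0.0653), without the count filter (edgeR adjusted p = 0.102) and with DESeq2 (adjusted p = 0.0702). Cxcl12 was not called with oligomycin in the other myotubes. Its mean went from 139 ± 6.74 to 153 ± 12.9 CPM in untransduced and from 140 ± 5.4 to 144 ± 6.41 CPM in LbNOX myotubes. With LbNOX, piericidin raised Cxcl12 from 140, 135 and 146 to 181, 175 and 166 CPM (0.31 ± 0.049, edgeR adjusted p = 0.00149, or 0.0581 and 0.083 without replicates 1 or 2), 1 call of 8 (background 6.78%). No member was called by edgeR or DESeq2 for piericidin with GFP (background 3.09%), oligomycin with LbNOX (background 32%), LbNOX against GFP (background 0.0242%) or the interaction of oligomycin and LbNOX (background 0%), where 2, 2, 0 and 1 had an unadjusted p under 0.05. For oligomycin with LbNOX, Csf1 (0.19, edgeR adjusted p = 0.0539) passed with DESeq2 size factors (edgeR adjusted p = 0.0445) and without replicates 1 (edgeR adjusted p = 0.0422).

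Other genes of these pathways, taken from fixed lists, moved in mixed directions in control myoblasts, where 61.7%, 63.2% and 50.8% of all genes were called with piericidin, antimycin and oligomycin. Of 48 further cytokine and chemokine genes 14 were tested, of which 6 were higher and 5 lower with piericidin, 5 and 6 with antimycin and 7 and 4 with oligomycin, with median log2 fold changes of −0.044, −0.33 and 0.35. Cxcl10, an interferon-induced chemokine that recruits T cells, went up where Ccl2 went down: it had 5, 9 and 5 counts with DMSO, 41, 23 and 28 with piericidin and 211, 223 and 227 with antimycin (5.52 ± 0.56 for antimycin, edgeR adjusted p = 8.27e-10). Ccl4 had 0 counts in each DMSO library and 46, 57 and 33 with antimycin. Vegfa, an angiogenic growth factor, had 53, 53 and 51 counts with DMSO, 235, 181 and 224 with piericidin, 271, 290 and 271 with antimycin and 181, 190 and 111 with oligomycin, above DMSO in every library.

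Of 19 receptor genes of the members 8 were tested, of which 3 were higher and 5 lower with piericidin, 3 and 3 with antimycin and 1 and 4 with oligomycin, with medians of −0.89, −0.1 and −0.28. Cxcr4, the receptor of CXCL12, fell with its ligand: it had 88, 103 and 82 counts with DMSO, 17, 2 and 8 with piericidin, 9, 5 and 17 with antimycin and 10, 17 and 7 with oligomycin (−2.9 ± 0.41, −2.71 ± 0.4 and −2.81 ± 0.39, edgeR adjusted p = 3.69e-07, 8.05e-07 and 5.25e-07). Il6st, the shared subunit of the IL-6 family, gave 0.73 ± 0.1 with antimycin (edgeR adjusted p = 2.24e-07), and Lifr gave −1.42 ± 0.16 with piericidin and −0.74 ± 0.16 with oligomycin (edgeR adjusted p = 8.47e-09 and 0.000177). In myotubes against control myoblasts, with 69.4% of all genes called, 4 of the 8 receptors were higher and 1 lower, with Osmr at 1.28 ± 0.1 and Il6st at 1.1 ± 0.093 (edgeR adjusted p = 5.8e-12 and 1.5e-11).

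Among 25 genes of NF-kB signalling and feedback 20 were tested, with 8 higher and 5 lower for piericidin, 10 and 7 for antimycin and 4 and 7 for oligomycin (medians −0.055, 0.25 and −0.2). Tnfaip3, which encodes the feedback inhibitor A20, had 25, 58 and 38 counts with DMSO and 334, 251 and 279 with antimycin (3.26 ± 0.36, edgeR adjusted p = 4.6e-09), while Vcam1, an adhesion molecule, had 574, 668 and 557 with DMSO and 120, 128 and 133 with piericidin (−1.83 ± 0.11, edgeR adjusted p = 3.36e-15). Of 16 JAK-STAT genes 3 were higher and 8 lower with piericidin, 4 and 7 with antimycin and 3 and 7 with oligomycin (medians −0.36, −0.28 and −0.16). Stat5a fell with all 3 inhibitors (−2 ± 0.21, −1.61 ± 0.2 and −1.23 ± 0.19, edgeR adjusted p = 1.66e-09, 5.3e-08 and 3.97e-06). Of 12 factors that bind cytokine mRNAs and set their decay, 1 was higher and 3 lower with piericidin, 2 and 3 with antimycin and 1 and 2 with oligomycin (medians −0.11, −0.031 and −0.04). Zfp36, which encodes tristetraprolin, gave 1.43 ± 0.19 with antimycin (edgeR adjusted p = 1.25e-07), and Elavl1, whose product stabilizes such mRNAs, gave 0.83 ± 0.16, 0.69 ± 0.16 and 0.69 ± 0.16 (edgeR adjusted p = 5.2e-05, 0.000422 and 0.000573). The size of the Elavl1 changes rested on the first DMSO library, with 738 counts next to 2279 and 1479, and was 0.53, 0.4 and 0.42 without replicates 1, still called.

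Across the 35 condition means on a log2 CPM scale, members of a cluster ran together, with Pearson r of 0.926 between Ccl2 and Ccl7 and 0.912 between Cxcl1 and Cxcl5. For each of the 9 members that passed the count minimum, genes outside the list with the most similar profile are given, up to 3 each. For Ccl2 these were Baiap2 (r = 0.939), Avpr1a (0.936) and Slc25a10 (0.935), and for Ccl7 Coro1b (0.88), Cdk5rap2 (0.877) and Pir (0.877). Pmp22 came first for both Cxcl1 (0.797), before Sord (0.749) and Tmeff2 (0.739), and Cxcl5 (0.876), before Frk (0.802) and Dab2 (0.795). Cxcl12 had Rnf150 (0.981), Deptor (0.974) and Dapk2 (0.972), and Cx3cl1 had Ercc3 (0.852) and Acat1 (0.835). For Lif they were Klf5 (0.935) and Col5a3 (0.93), for Il11 Hipk2 (0.846), Prg4 (0.839) and Ppp1r12a (0.839), and for Csf1 Ssrp1 (0.987), H2afz (0.986) and Exosc8 (0.985). These correlations are descriptions: the conditions share controls and fall into 3 cell states, which alone can give a high value. The range of condition means was 32.2-fold for Ccl2, 35.1-fold for Cxcl5, 27.9-fold for Cxcl1, 23.8-fold for Il11, 20.4-fold for Cxcl12, 11.6-fold for Ccl7, 9.46-fold for Lif, 6.93-fold for Csf1 and 3.47-fold for Cx3cl1.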

How the data were processed

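RNA was isolated from 96 samples of C2C12 cells, and polyA-selected Smart-seq2 libraries, which do not mark the strand, were sequenced. Per the labels and the study's methods, the authors demultiplexed reads with bcl2fastq 2.20.0.422, pseudo-aligned them with kallisto 0.44 with bias correction to Ensembl v93 transcripts of GRCm38.p6 plus the transgenes, summed them over 2 flow cells and summarized them to genes with tximport. The deposited table holds these estimated counts as whole numbers, without normalization, for 54146 Ensembl genes and 4 transgenes. Reads of near-identical transcripts are shared out by the model, and Ccl2 and Ccl7 or Cxcl1 and Cxcl5, being paralogs, could exchange a part.

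Groups and replicate numbers were taken from the sample titles. As in the study, a gene was kept in a fit if all replicates of 1 or more of its conditions had 16 counts or more. In R 4.3.3, edgeR 4.0.16 was used (TMM scaling, quasi-likelihood F test), with 1 mean per condition in 6 fits: myoblasts at 10 h (37 samples), chloramphenicol (8), untransduced myotubes (27), transduced myotubes (15), day 1 cells (9) and the 3 states (33). Benjamini-Hochberg adjustment ran over all genes tested in a comparison, calls were made at 0.05, and the SE was derived from F, as the size of the log2 fold change over √F. The fitting was tested on simulated data. There were 48 comparisons, of which the 2 interactions between control myoblasts and day 1 cells were added after the values had been seen. CPM are relative to the TMM-scaled library size over all 96 samples, and a prior count of 2 was used for log2 CPM. All 10 members are named, with up to 4 genes of largest change called per list and comparison and the 3 genes of most similar profile to each of the 9 members over the count minimum, except for a few that are not reported here. The members and gene lists were chosen with earlier results of these data known. Coordinates are from GENCODE M21 (GRCm38), which held 54079 of the table's Ensembl IDs.

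Alternatives were DESeq2 1.42.0 size factors, no count filter, the DESeq2 Wald test, a replicate block, plate position, only the conditions compared, and leaving out each replicate. The 87 replicate pairs held 0 identical samples (chi-square per degree of freedom 2.64 to 14.4). Chance counting alone limits members near 10 counts.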

Additional observations from a re-analysis of the deposited data

Results flagged for a closer look

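In 65 cases, over 13 comparisons with 7 to 9 members tested in each and 0% to 51.5% of all genes called, the effect of an inhibitor on a member differed between cell lines or cell states by the test of the difference itself (edgeR interaction term, adjusted over all genes tested in each comparison). Values are the log2 fold change in the transgene line, in myotubes or in day 1 cells minus that in control myoblasts, so that a positive value goes with a smaller fall or a larger rise. The comparisons with a called difference share the control myoblast libraries. The interactions of chloramphenicol and LbNOX in myoblasts and of oligomycin and LbNOX in myotubes used other libraries, and no member was called in them. Of the 65, 18 were not called under at least 1 alternative. These were the antimycin values of Cxcl5 (0.93 and 1.35), Cxcl12 and Lif with LbNOX, of Csf1 with mitoLbNOX and of Ccl2 in myotubes, the piericidin values of Cxcl1 and Csf1 with LbNOX, Il11 with NDI1 and on day 1 and Cxcl1 in myotubes, and the oligomycin values of Ccl2 and Cxcl12 with LbNOX, of Cxcl1, Lif, Cx3cl1 and Il11 in myotubes and of Lif on day 1.

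For Ccl2 the differences with piericidin were 2.72 for LbNOX, 2.37 for mitoLbNOX, 3.38 for NDI1, 3.84 for myotubes and 2.78 for day 1 cells. With antimycin Ccl2 gave 1.71 for myotubes, and with oligomycin it gave 1.04 for LbNOX, 3.52 for myotubes and 2.71 for day 1 cells. For Ccl7 piericidin gave 2.56 for LbNOX, 2.52 for mitoLbNOX, 2.85 for NDI1, 3.51 for myotubes and 2.94 for day 1 cells, and oligomycin gave 3.57 for myotubes and 3.01 for day 1 cells.

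For Cxcl1 piericidin gave 1.35 for LbNOX, 1.6 for myotubes and 1.67 for day 1 cells, and oligomycin gave 1.03 for myotubes and 2.33 for day 1 cells. For Cxcl5 piericidin gave 1.71 for LbNOX, 1.62 for mitoLbNOX, 2.01 for NDI1, 2.59 for myotubes and 2.86 for day 1 cells. With antimycin Cxcl5 gave 0.93 for LbNOX, 1.35 for mitoLbNOX and 3.16 for myotubes, and with oligomycin 1.67 for myotubes and 2.81 for day 1 cells.

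For Cxcl12 piericidin gave 2.13 for LbNOX, 1.96 for mitoLbNOX, 2.24 for NDI1, 2.73 for myotubes and 2.44 for day 1 cells. Antimycin gave −0.57 for LbNOX and 1.21 for myotubes, and oligomycin gave 0.64 for LbNOX, 1.82 for myotubes and 1.35 for day 1 cells. For Cx3cl1 piericidin gave 1.56 for LbNOX, 1.48 for mitoLbNOX, 1.75 for NDI1, 1.39 for myotubes and 1.48 for day 1 cells. Antimycin gave 1.00 for LbNOX, 0.73 for mitoLbNOX and 0.85 for myotubes, and oligomycin gave 0.49 for myotubes.

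For Lif antimycin gave −1.62 for LbNOX and −2.24 for myotubes, and oligomycin gave −1.54 for myotubes and −1.42 for day 1 cells. For Il11, which passed the count minimum of the myoblast fit only through the piericidin and antimycin libraries of control myoblasts, piericidin gave −3.32 for NDI1 (not called without that minimum), −2.34 for myotubes and −2.52 for day 1 cells, antimycin −2.97 for myotubes and oligomycin −1.49 for myotubes. For Csf1 piericidin gave −0.21 for LbNOX and −0.63 for day 1 cells, antimycin 0.23 for mitoLbNOX, and oligomycin −0.49 for LbNOX, −0.75 for myotubes and −0.63 for day 1 cells.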

How the results depend on the processing

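Of 174 member results called in the reported fits, 119 were called in the same direction under every alternative, and none of the 1576 alternative values of called results reversed direction. The number of called members moved by over 1.5 times in 6 families of comparisons. For the transgene lines without inhibitor it was 3 and became 5 with the DESeq2 Wald test. For chloramphenicol it was 2, became 1 with a replicate block, and ranged from 1 to 2 with single libraries left out. For the inhibitors in untransduced myotubes it was 3, and 1 without any of the replicate numbers. For BAM15, 5% oxygen and combinations it was 10, became 6 without the count filter and ranged from 5 to 7 with replicates left out. For adenovirus-transduced myotubes it was 3 and ranged from 0 to 2, and for day 1 cells it was 6 and ranged from 3 to 4, with replicates left out. The cause was not tested, except that leaving out libraries leaves fewer samples. Across the alternatives the number of calls was 18 to 22 in control myoblasts, where it was 20 as reported, 17 to 24 in the transgene lines (22), 21 to 28 for their interactions (28), 19 to 24 for the cell states (23) and 17 to 22 for the state interactions (22). These are counts and not the same calls throughout: without the count filter Il6 was tested as well. Replicate numbers did not pair the samples (mean correlation of deviations from the condition means −0.0377 to 0.0257), and with a replicate block 4 called results missed the threshold (Cx3cl1 with chloramphenicol and with BAM15 and oligomycin, and the oligomycin interactions of Cxcl1 and Il11 with myotubes) and 1 more passed it (Cx3cl1 with piericidin on day 1). Without the count filter 26 called results missed it and 4 more passed, and with plate position 12 and 3. All libraries of day 1 cells sat in outer wells, so plate position could not alter the fit of day 1 cells alone. With a prior count of 0.5 the median over members and conditions of the condition means was 2.05 in place of 2.10 on the log2 CPM scale. Depth limits values near 10 counts per library. Among them are Il6 throughout, Il11 and Lif in myoblasts with DMSO, and Ccl2 in myotubes. In control myoblasts they include Ccl2, Ccl7, Cxcl1 and Cxcl5 with piericidin and Cxcl1 and Cxcl5 with antimycin.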

Other observations

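In myotubes against control myoblasts, both with DMSO, the fixed lists of signalling genes showed further differences. Of 16 JAK-STAT genes 8 were higher and 2 lower, with a median log2 fold change of 0.31 next to 0.039 over all genes tested. Among them were Stat3 (1.78 ± 0.079), Stat5b (1.8 ± 0.14) and Bcl6 (2.44 ± 0.11), with edgeR adjusted p of 5.92e-18, 5.57e-12 and 5.04e-18. Of 20 tested genes of NF-kB signalling and feedback 10 were higher and 6 lower (median 0.18), among them Tnfaip3 (2.92 ± 0.3) and Relb (1.82 ± 0.2), with edgeR adjusted p of 1.19e-09 and 4.76e-09. Of 12 factors of cytokine mRNA decay 2 were higher and 5 lower (median −0.3), with Zfp36l1 at 3.16 ± 0.12 and Zfp36l2 at −1.38 ± 0.12 (edgeR adjusted p = 6.66e-20 and 6.96e-11). Of the further cytokines and chemokines 24 were tested, of which 12 were higher and 6 lower (median 1.45). The background of that comparison was 69.4% of genes called.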
